A study of Rattus norvegicus with 13 samples.

Results

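The RT1 genes are the major histocompatibility genes of the rat. All rows whose name starts with RT1- were taken from the 3 deposited count tables, 1 table per time point, which gave 50 names of 41182 in any table: 39 of class I and 11 of class II. The 2-month table lists 31 of them (21 class I and 10 class II) among 25600 names. The tables of 6 and 8 months list 48 (38 and 10) among 38600 names. RT1-N1 and the pseudogene RT1-Hb-ps1 are listed at 2 months alone. Among the 19 rows listed at 6 and 8 months alone are RT1-A2, RT1-A3, RT1-N2, RT1-T24-3 and most RT1-CE rows, so that these genes had no row of their own at 2 months.

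The study sequenced bulk RNA of 13 whole rat hearts, which the titles call biological replicates. The WT rats are labelled with the treatment none. The sonogenetic rats, called ST here, have the genotype label MscL-G22S, a variant of a bacterial channel opened by membrane tension, which they received with AAV2/9-cTnT-MscL-G22S-mCherry, an adeno-associated virus whose cTnT promoter is active in heart muscle cells. The 2-month time point has 2 hearts of each kind, the 6-month one 3 of each, and the 8-month one 3 ST hearts and no WT heart. No group received a virus without the channel, so virus and channel cannot be told apart. The labels do not say whether months count from birth or from transduction, whether ultrasound was applied, or which strain or RT1 haplotype the rats carry. A list of 5 heart muscle markers summed to between 43531 and 77656 CPM (counts for each M counts of the library) in the 13 libraries.

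Class I molecules sit on nearly all nucleated cells and, with the light chain beta-2 microglobulin, show peptides from inside the cell to CD8 T cells. Their genes are switched on by interferons through NLRC5, and in the heart endothelial cells carry more of them than heart muscle cells. Class II molecules are pairs of an alpha and a beta chain that show peptides taken up from outside to CD4 T cells. They are made mainly by dendritic cells, macrophages and B cells under the control of CIITA, while the RFX complex acts on both classes. In the rat, RT1-A is the classical class I locus, whereas the C/E and M regions hold many class I genes that differ in number between haplotypes. RT1-B and RT1-D are the counterparts of human DQ and DR.

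On chromosome 20 of the RefSeq assembly GRCr8, 49 of the 50 rows could be placed by symbol. The order runs from the M genes over a stretch with the O, N, S and T24 genes to the CE genes, then to class II, and ends with RT1-A3, RT1-A2 and RT1-A1. The annotated spans of 16 of the 38 class I genes overlapped another RT1 gene: RT1-N2 shared bases with RT1-O1l1, RT1-T24-3 with RT1-T24-4, RT1-CE10 with RT1-CE11, RT1-CE13 and RT1-CE14 with RT1-CE12, and RT1-CE4 with RT1-CE5. None of the 11 class II genes overlapped another RT1 gene, nor did RT1-CE16, RT1-CE15 or RT1-T24-1. How the submitters split reads between overlapping or near-identical copies was not given in the sources used here, and each class I row is uncertain by itself.

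The 250 bases before the start of the gene are shown for 6 members on which the comparisons turn. They come from the RefSeq promoter table of GRCr8, which held 42 of the 50 rows (33 class I and 9 class II). RT1-CE16 (chr20:3265444-3265693, minus strand) and RT1-N2 (chr20:2646080-2646329, plus strand) showed the widest swings. RT1-CE5 (chr20:3484091-3484340, minus strand) held the most class I counts in WT hearts at 6 months. RT1-A2 (chr20:4872621-4872870, plus strand) is a classical gene that did not pass the test at 6 months. RT1-Ba (chr20:4576807-4577056, plus strand) and RT1-Da (chr20:4515165-4515414, plus strand) code for class II alpha chains. Capitals mark matches, on either strand, of the letters of the CCAAT box (CCAAT), an interferon-stimulated element (TTTCNNTTC), the core of the X2 box (TGACG) and the kappa B consensus.
RT1-CE16: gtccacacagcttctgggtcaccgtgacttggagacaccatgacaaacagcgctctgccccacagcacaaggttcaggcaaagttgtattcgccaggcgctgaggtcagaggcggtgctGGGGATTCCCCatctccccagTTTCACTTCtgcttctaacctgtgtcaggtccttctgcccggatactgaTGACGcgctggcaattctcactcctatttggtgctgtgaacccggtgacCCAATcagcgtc
RT1-N2: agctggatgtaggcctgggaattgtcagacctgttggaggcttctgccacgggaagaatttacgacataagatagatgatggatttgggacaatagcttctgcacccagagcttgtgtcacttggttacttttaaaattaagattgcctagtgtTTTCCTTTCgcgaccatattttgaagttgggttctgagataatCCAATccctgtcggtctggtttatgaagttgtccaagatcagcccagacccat
RT1-CE5: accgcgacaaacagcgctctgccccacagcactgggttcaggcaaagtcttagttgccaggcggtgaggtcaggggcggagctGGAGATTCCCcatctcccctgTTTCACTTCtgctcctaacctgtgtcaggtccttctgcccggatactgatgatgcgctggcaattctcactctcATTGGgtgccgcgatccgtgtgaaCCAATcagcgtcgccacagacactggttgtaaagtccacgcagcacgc
RT1-A2: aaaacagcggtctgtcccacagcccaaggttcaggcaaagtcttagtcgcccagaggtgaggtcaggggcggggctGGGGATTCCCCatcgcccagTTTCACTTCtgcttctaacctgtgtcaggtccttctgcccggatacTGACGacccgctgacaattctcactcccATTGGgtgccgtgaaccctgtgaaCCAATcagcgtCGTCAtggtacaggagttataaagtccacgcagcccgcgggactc
RT1-Ba: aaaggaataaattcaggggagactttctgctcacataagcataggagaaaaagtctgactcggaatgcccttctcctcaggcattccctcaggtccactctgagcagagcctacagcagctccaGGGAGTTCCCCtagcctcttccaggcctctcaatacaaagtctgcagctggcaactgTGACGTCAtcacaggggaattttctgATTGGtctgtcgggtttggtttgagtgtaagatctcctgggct
RT1-Da: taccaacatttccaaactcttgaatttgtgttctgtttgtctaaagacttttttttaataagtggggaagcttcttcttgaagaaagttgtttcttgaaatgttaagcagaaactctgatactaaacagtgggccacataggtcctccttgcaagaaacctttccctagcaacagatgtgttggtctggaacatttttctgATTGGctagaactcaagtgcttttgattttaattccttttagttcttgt

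The kappa B consensus stood in 11 of the 33 class I windows (33.3%) against 2117 of all 33469 windows (6.33%), and in 1 of the 9 class II windows, that of RT1-Ba (11.1%). Apart from RT1-O1l1 the class I matches lay in A and CE genes. This consensus was chosen after the matches of a longer form had been seen, so its share among class I windows is not an independent result. The interferon-stimulated letters stood in 13 class I windows (39.4%; 7.12% of all), and in no class II window. CCAAT was found in 20 class I windows (60.6%) and in 9 of 9 class II windows (100%; 34.02% of all). TGACG was found in 8 class I windows (24.2%) and 1 class II window (11.1%; 18.2% of all). In RT1-Ba the palindrome TGACGTCA gives a match on each strand. The 4 kinds of match share no bases in the 6 windows printed. RT1-CE16 and RT1-A2 both hold all 4 motifs. A match of letters is not a measured site, and any part of the motifs in the RT1 differences was not tested. Aligned end to end, the windows of RT1-CE16 and RT1-CE13 were 89.6% identical, as were those of RT1-A2 and RT1-A3. These were the highest values of their regions. The median over pairs was 57.4% for the CE windows, 75.2% for the A windows and 53.2% between class I regions.

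Depth was 6.54 to 11.3 M counts a library at 2 months, 6.72 to 8.49 M at 6 months and 4.70 to 5.57 M at 8 months, and 3 counts came to between 0.266 and 0.639 CPM. Expected counts that are not whole, as arise when a read is split between rows, made up 38.1% to 52.4% of class I rows by library at 2 months and 52.6% to 63.2% later, against 6.14% to 11.02% of all names. Class sums are therefore given beside single rows. CPM values are not divided by gene length, so rows are compared between groups and not with each other, and levels at 2 months are not compared with later ones because the tables list different names. In bulk tissue, fewer cells of a type and less RNA per cell cannot be told apart.

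**Figure D1:**
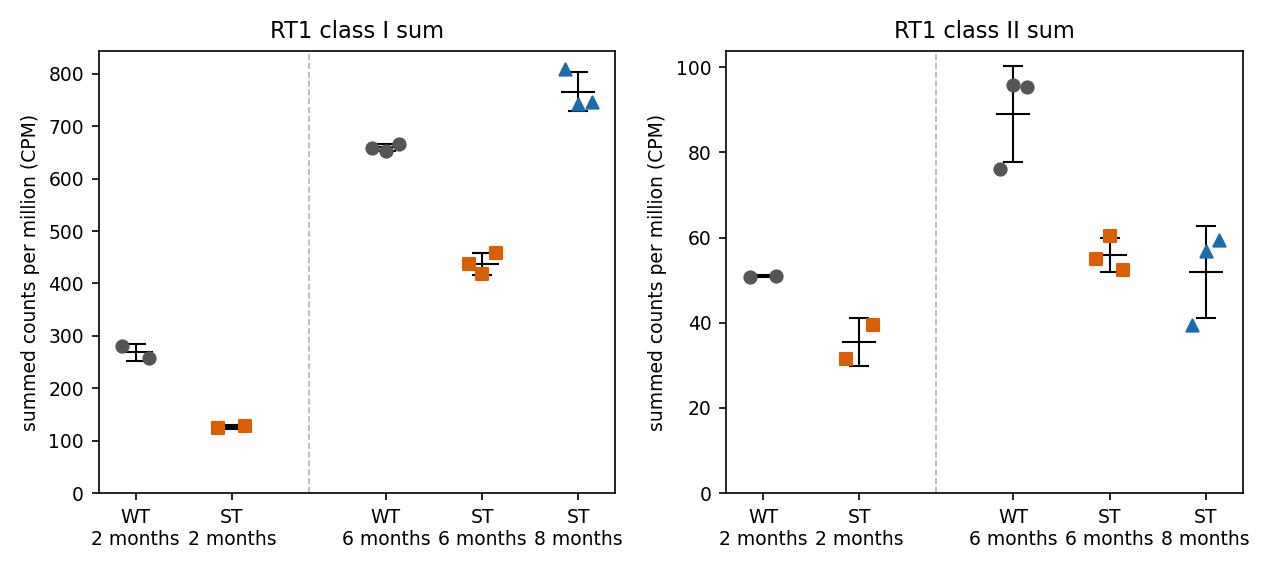
Summed RT1 class I counts (left) and class II counts (right) in each heart, in CPM on an axis from 0; points are single libraries, horizontal bars group means and error bars 1 SD. The dashed line parts the 2-month table from the later ones, and at both time points with a WT group every ST point lies under every WT point in both panels, while the 3 class I sums of ST hearts at 8 months (743 to 809 CPM) lie above all others.

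At 2 months class I RNA was lower in ST than in WT hearts, and class II rows leaned the same way without passing the test. The summed class I level was 281 and 257 CPM in the WT hearts and 123 and 129 CPM in the ST hearts, a 2.14-fold lower sum (log2 fold change -1.10, SE 0.127). Of 13 class I rows tested, 7 fell and none rose at an adjusted p under 0.05, with a median log2 fold change of -1.01. Over all 12121 genes tested the median was about 0, and 4.80% passed, 2.10% as lower and 2.70% as higher. In 12 of the 13 class I rows both ST hearts lay under both WT hearts, which held for 24.1% of all genes tested.

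RT1-A1, the classical class I row of that table, read 62.9 and 58.8 CPM in WT and 24.9 and 23.0 CPM in ST hearts (log2 fold change -1.35, SE 0.140, adjusted p = 2.04e-05). RT1-CE16, of the CE region, read 81.0 and 74.1 CPM in WT and 29.3 and 32.1 CPM in ST hearts, a 2.53-fold fall (log2 fold change -1.34, SE 0.136, adjusted p = 1.59e-05). Its neighbour RT1-CE15 read 12.97 and 10.7 CPM against 5.37 and 4.85 CPM (log2 fold change -1.22, SE 0.227, adjusted p = 0.00414). In all 3 rows the WT values stood clear of the ST values, though RT1-CE15 missed the threshold without WT replicate 1 (adjusted p = 0.0623).

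The other 4 falls lay in the stretch of O, N, S and T24 genes. RT1-T24-1 fell from 10.2 and 12.8 CPM in WT to 3.70 and 3.79 CPM in ST hearts (log2 fold change -1.60, SE 0.246, adjusted p = 0.000862). RT1-S3 fell from 36.7 and 39.5 CPM to 18.3 and 19.4 CPM (log2 fold change -1.01, SE 0.150, adjusted p = 0.000617). RT1-T24-4 and RT1-O1l1 fell too, but each rested on single hearts. RT1-T24-4 read 47.2 and 36.6 CPM against 27.6 and 26.2 CPM (log2 fold change -0.65, SE 0.155, adjusted p = 0.0236) and did not pass without WT replicate 1 (adjusted p = 0.528) or in DESeq2 (0.0585). RT1-O1l1, the row with the fewest counts of the 7, read 2.01 and 2.51 CPM against 0.355 and 0.706 CPM (log2 fold change -2.10, SE 0.517, adjusted p = 0.0267). It did not pass without WT replicate 1, WT replicate 2 or ST replicate 1, or in DESeq2 (adjusted p from 0.0951 to 0.266). RT1-N3, at 10.48 and 8.45 CPM in WT and 5.31 and 6.71 CPM in ST hearts, did not pass (log2 fold change -0.68, SE 0.237, adjusted p = 0.127) but did without ST replicate 2 (adjusted p = 0.0329). The other class I rows tested that did not pass were RT1-CE1, RT1-CE14, RT1-N1, RT1-M3-1 and RT1-M10-1, with log2 fold changes from -1.63 in RT1-CE14 to 0.33 in RT1-M10-1, the class I row whose groups overlapped.

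**Figure D2:**
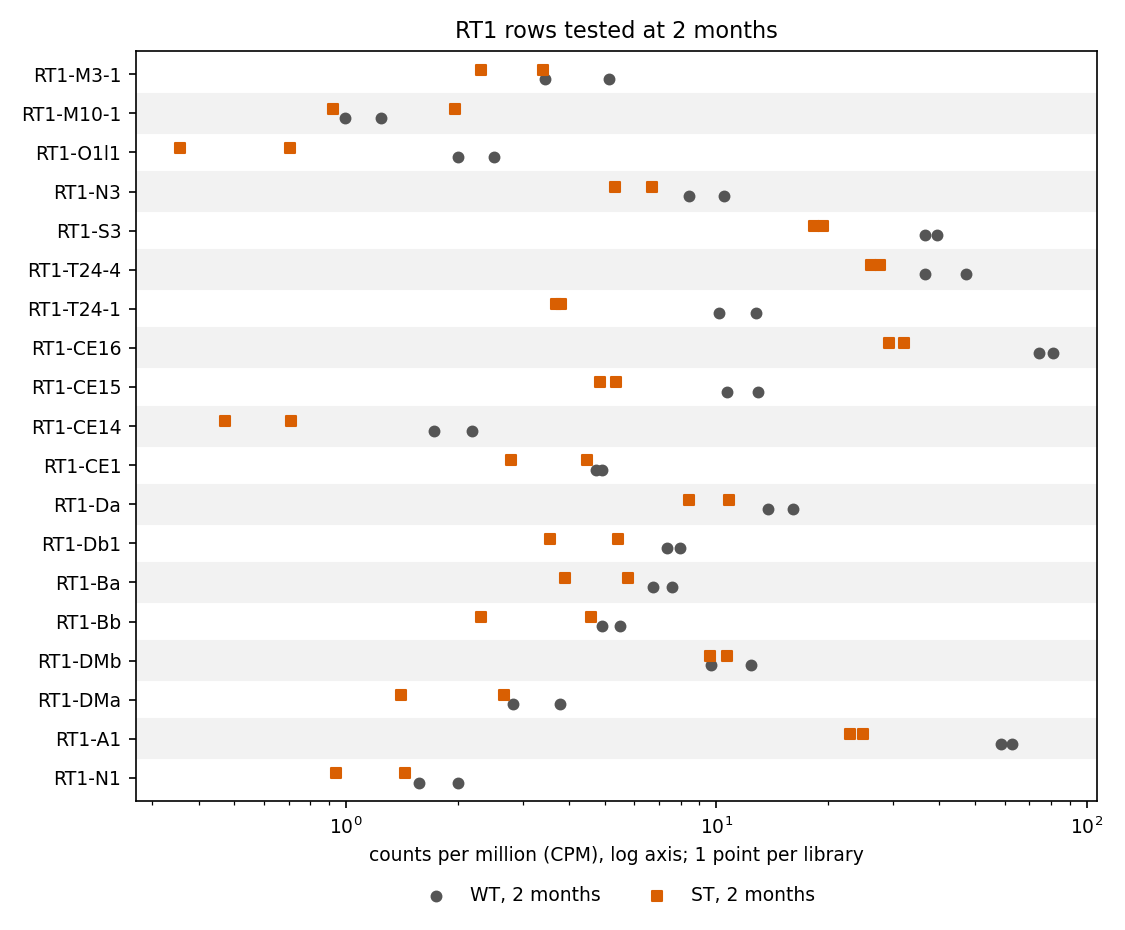
Level of each RT1 row tested at 2 months, in CPM on a log axis, with 1 point per heart and the rows in chromosome order (RT1-N1, which has no place in GRCr8, last). ST squares lie to the left of the WT circles in every row except RT1-M10-1 and RT1-DMb, with wide gaps in RT1-A1, RT1-CE16 and RT1-S3.

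Of 6 class II rows tested at 2 months none passed, and 3 had an unadjusted p under 0.05 (RT1-Ba, RT1-Da and RT1-Db1). Their median log2 fold change was -0.63, and the class II sum was 50.7 and 51.1 CPM in WT and 31.5 and 39.4 CPM in ST hearts (log2 fold change -0.53, SE 0.145). The alpha chain row RT1-Da read 16.1 and 13.8 CPM in WT and 8.44 and 10.8 CPM in ST hearts (log2 fold change -0.65, SE 0.199, adjusted p = 0.0770), and the beta chain row RT1-Db1 7.36 and 7.99 CPM and 3.55 and 5.41 CPM (log2 fold change -0.79, SE 0.273, adjusted p = 0.118). Both passed without ST replicate 2 (adjusted p = 0.00757 and 0.0188). RT1-Ba, the alpha chain of RT1-B, read 7.58 and 6.74 CPM against 3.91 and 5.76 CPM (log2 fold change -0.59, SE 0.271, adjusted p = 0.251). In 5 of the 6 rows both ST hearts lay under both WT hearts, which held for 24.1% of all genes tested. The exception was RT1-DMb, a chain of the DM molecule that exchanges peptides on class II, at 9.70 and 12.4 CPM and 9.60 and 10.7 CPM (log2 fold change -0.11, SE 0.207, adjusted p = 0.827). The remaining 12 of the 31 rows were left out for low counts. They include RT1-DOa and RT1-DOb, chains of the DM inhibitor DO, and no library of any of them exceeded the 2.01 CPM of RT1-CE2 in a WT heart.

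Some of the genes that serve class I fell with it at 2 months. Of 25 genes tested from 4 lists of antigen presentation genes, 7 fell and 1 rose, or 32.0% against the 4.80% of all genes. They were 3 of 8 class I partners and loading genes, 3 of 4 immunoproteasome genes and 2 of 9 regulators. The fallen genes were both chains of the peptide transporter, Tap1 (-1.62 (SE 0.191, adjusted p = 7.27e-05)) and Tap2 (-1.01 (SE 0.203, adjusted p = 0.00691)), the immunoproteasome subunits Psmb8 (-1.28), Psmb9 (-1.57) and Psmb10 (-1.09), the light chain B2m (-0.55) and Nlrc5, the activator of class I genes. Nlrc5 read 24.9 and 26.6 CPM in WT and 9.33 and 11.6 CPM in ST hearts (log2 fold change -1.30, SE 0.177, adjusted p = 0.000256). The gene that rose was the interferon gamma receptor chain Ifngr1 (0.48). None of the 4 class II partners passed, among them the invariant chain Cd74 (-0.24 (SE 0.130, adjusted p = 0.343)), and neither did Ciita (-0.85 (SE 0.377, adjusted p = 0.237)).

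The leukocyte markers gave these values beside the 2-month falls. The summed level of 10 T and NK cell markers was 19.1 to 20.4 CPM in WT and 15.999 to 17.9 CPM in ST hearts, and none of the 2 that could be tested passed. Most of that sum was Cd4, which monocytes and macrophages of the rat also carry, at 16.9 and 15.51 CPM in WT and 14.9 and 13.2 CPM in ST hearts. The macrophage list overlapped (128 to 166 CPM in WT, 148 to 175 CPM in ST; 0 of 9 passed), and the dendritic cell list summed to 21.6 to 22.9 CPM in WT and 25.0 to 28.2 CPM in ST hearts (0 of 2 passed). Its tested members lay apart without overlap in opposite directions: Zbtb46, which holds most of the sum, read 13.9 and 15.4 CPM in WT and 18.8 and 22.2 CPM in ST, and Itgax 6.80 and 6.58 CPM and 4.80 and 4.94 CPM. The heart muscle list overlapped (48406 to 50763 CPM in WT, 43531 to 52534 CPM in ST; 0 of 5 passed). The endothelial list also overlapped (837 to 866 CPM in WT, 843 to 875 CPM in ST), with 1 of 5 markers, Kdr, lower, against 2.10% of all genes tested. The defining B cell marker Cd79a had 0 counts in all 4 hearts and the T cell marker Cd3e at most 3. Their part in the RT1 falls was not tested.

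At 6 months RT1 genes were again lower in ST hearts, with calls in both classes, and the size of the fall differed widely between rows. The summed class I level was 659, 653 and 667 CPM in WT and 437, 417 and 458 CPM in ST hearts, 1.504-fold lower (log2 fold change -0.59, SE 0.0630). The class II sum was 76.0, 95.8 and 95.3 CPM in WT and 55.0, 60.3 and 52.3 CPM in ST hearts, 1.59-fold lower (log2 fold change -0.67, SE 0.101). Of 28 RT1 rows tested 18 fell and none rose: 14 of 22 class I rows and 4 of 6 class II rows. This comparison called many genes, 40.0% of 13253 tested, of which 20.1% were lower and 19.9% higher. The median log2 fold change was -0.58 for class I rows and -0.73 for class II rows, against about 0 over all genes. A log2 fold change of -1 or less was fitted for 7 RT1 rows, all class I, and for 5.40% of all genes tested.

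The 2 outermost CE genes, next to the T24 stretch, had some of the widest falls. RT1-CE16 read 24.4, 22.3 and 22.3 CPM in WT hearts and 3.14, 4.96 and 3.96 CPM in ST hearts, a 5.67-fold fall (log2 fold change -2.50, SE 0.153, adjusted p = 2.04e-07). RT1-CE15 read 13.9, 13.5 and 13.04 CPM in WT and 2.90, 3.02 and 2.29 CPM in ST hearts, a 4.82-fold fall (log2 fold change -2.27, SE 0.165, adjusted p = 9.05e-07). The highest ST heart lay far under the lowest WT heart in both.

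RT1-CE10 read 10.1, 15.7 and 17.3 CPM in WT and 6.16, 3.08 and 2.44 CPM in ST hearts (log2 fold change -1.92, SE 0.290, adjusted p = 0.000302). RT1-CE5, the class I row with the most counts in WT hearts, read 145, 132 and 144 CPM in WT and 67.3, 64.9 and 65.5 CPM in ST hearts (log2 fold change -1.09, SE 0.0680, adjusted p = 2.48e-07). RT1-CE4, whose span overlaps that of RT1-CE5, read 35.5, 35.8 and 33.2 CPM and 16.4, 18.4 and 21.9 CPM (log2 fold change -0.87, SE 0.110, adjusted p = 8.17e-05). All 3 fell with no overlap of the groups. Every ST heart lay under every WT heart in 16 of the 22 class I rows tested, and in 26.5% of all genes tested. RT1-CE13 fell by less, from 37.2, 38.4 and 34.3 CPM to 25.0, 23.7 and 27.8 CPM (log2 fold change -0.52, SE 0.0954, adjusted p = 0.00118). RT1-CE14 fell from 4.65, 3.54 and 4.47 CPM to 2.57, 2.15 and 1.88 CPM (log2 fold change -0.93, SE 0.245, adjusted p = 0.0105), a call lost without ST replicate 3 (adjusted p = 0.0515) and in DESeq2 (0.0547).

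Other CE rows did not pass. RT1-CE11 read 56.4, 49.9 and 55.4 CPM in WT and 41.1, 45.6 and 53.5 CPM in ST hearts (log2 fold change -0.20, SE 0.101, adjusted p = 0.140), and RT1-CE12 27.9, 31.6 and 28.8 CPM and 22.5, 21.7 and 27.4 CPM (log2 fold change -0.30, SE 0.111, adjusted p = 0.0511). Both passed without ST replicate 3 (adjusted p = 0.0379 and 0.0185). RT1-CE1 read 8.96, 8.204 and 9.62 CPM and 7.40, 8.499 and 7.48 CPM (log2 fold change -0.19, SE 0.146, adjusted p = 0.317), and RT1-CE2, with few counts, did not pass either (log2 fold change -0.54, SE 0.215, adjusted p = 0.0656). The CE rows together summed to 357 to 370.5 CPM in WT and 198 to 219 CPM in ST hearts, a ratio of 1.78.

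The classical RT1-A rows summed to 76.4 to 97.7 CPM in WT and 75.8 to 80.02 CPM in ST hearts, which overlap, a ratio of 1.16. RT1-A2 read 64.5, 87.0 and 87.1 CPM in WT and 70.4, 68.1 and 71.7 CPM in ST hearts, so that the lowest WT heart lay under all ST hearts, and it did not pass (log2 fold change -0.18, SE 0.109, adjusted p = 0.207). Without that heart, WT replicate 1, it did (adjusted p = 0.00642, log2 fold change -0.32). RT1-A1 fell from 8.96, 7.82 and 7.32 CPM to 4.10, 5.75 and 5.64 CPM (log2 fold change -0.62, SE 0.180, adjusted p = 0.0168), a call lost without WT replicate 1 (adjusted p = 0.0597), without ST replicate 1 (0.0675) and in DESeq2 (0.0690). RT1-A3, with few counts, did not pass (log2 fold change -0.19, SE 0.288, adjusted p = 0.639).

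In the stretch of O, N, S and T24 genes, falls of many-fold stood beside rows that did not pass. RT1-N2 had 4.19, 2.27 and 3.17 CPM in WT and 0.158, 0.124 and 0.131 CPM in ST hearts (log2 fold change -4.42, SE 0.497, adjusted p = 3.16e-05), that is 72 counts over the WT hearts against 3 over the ST hearts. After scaling for depth these gave a ratio of 23.7 with a 95% counting interval of 7.79 to 118. RT1-T24-1 read 3.46, 2.41 and 3.30 CPM in WT and 0.367, 0.516 and 0.136 CPM in ST hearts (log2 fold change -3.21, SE 0.422, adjusted p = 0.000106), or 69 counts against 8 and a ratio of 8.51 (4.09 to 20.5). RT1-T24-3 fell from 16.6, 18.9 and 17.1 CPM to 4.36, 4.28 and 7.35 CPM (log2 fold change -1.71, SE 0.184, adjusted p = 2.28e-05). The ST hearts thus had few counts in the rows RT1-N2 and RT1-T24-1, where each WT heart had several times the CPM. With read splitting and haplotypes unknown, fewer reads assigned to a row and less RNA of the gene cannot be told apart.

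RT1-T24-4, whose span overlaps RT1-T24-3, read 114, 97.0 and 98.2 CPM in WT and 95.1, 77.3 and 86.2 CPM in ST hearts (log2 fold change -0.26, SE 0.0900, adjusted p = 0.0393). RT1-S3 read 48.3, 57.2 and 54.2 CPM and 46.4, 41.1 and 43.3 CPM (log2 fold change -0.29, SE 0.0909, adjusted p = 0.0252). Both small falls were fragile. The call of RT1-T24-4 was lost without any 1 of the WT hearts or of ST replicates 2 and 3 and in DESeq2 (adjusted p from 0.0533 to 0.137). That of RT1-S3 was lost without WT replicate 2 or 3, without ST replicate 2 or 3 and in DESeq2 (0.0599 to 0.110). RT1-N3 read 11.1, 9.15 and 9.34 CPM and 8.78, 8.35 and 11.1 CPM, overlapped and did not pass (log2 fold change -0.06, SE 0.156, adjusted p = 0.792), nor did RT1-O1l1 (log2 fold change 0.15, SE 0.253, adjusted p = 0.670). Of the M genes only RT1-M3-1, the counterpart of a mouse gene that presents formylated bacterial peptides, had enough counts to be tested. It fell from 8.46, 7.08 and 11.1 CPM to 4.01, 5.65 and 5.23 CPM (log2 fold change -0.82, SE 0.208, adjusted p = 0.00846).

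**Figure D3:**
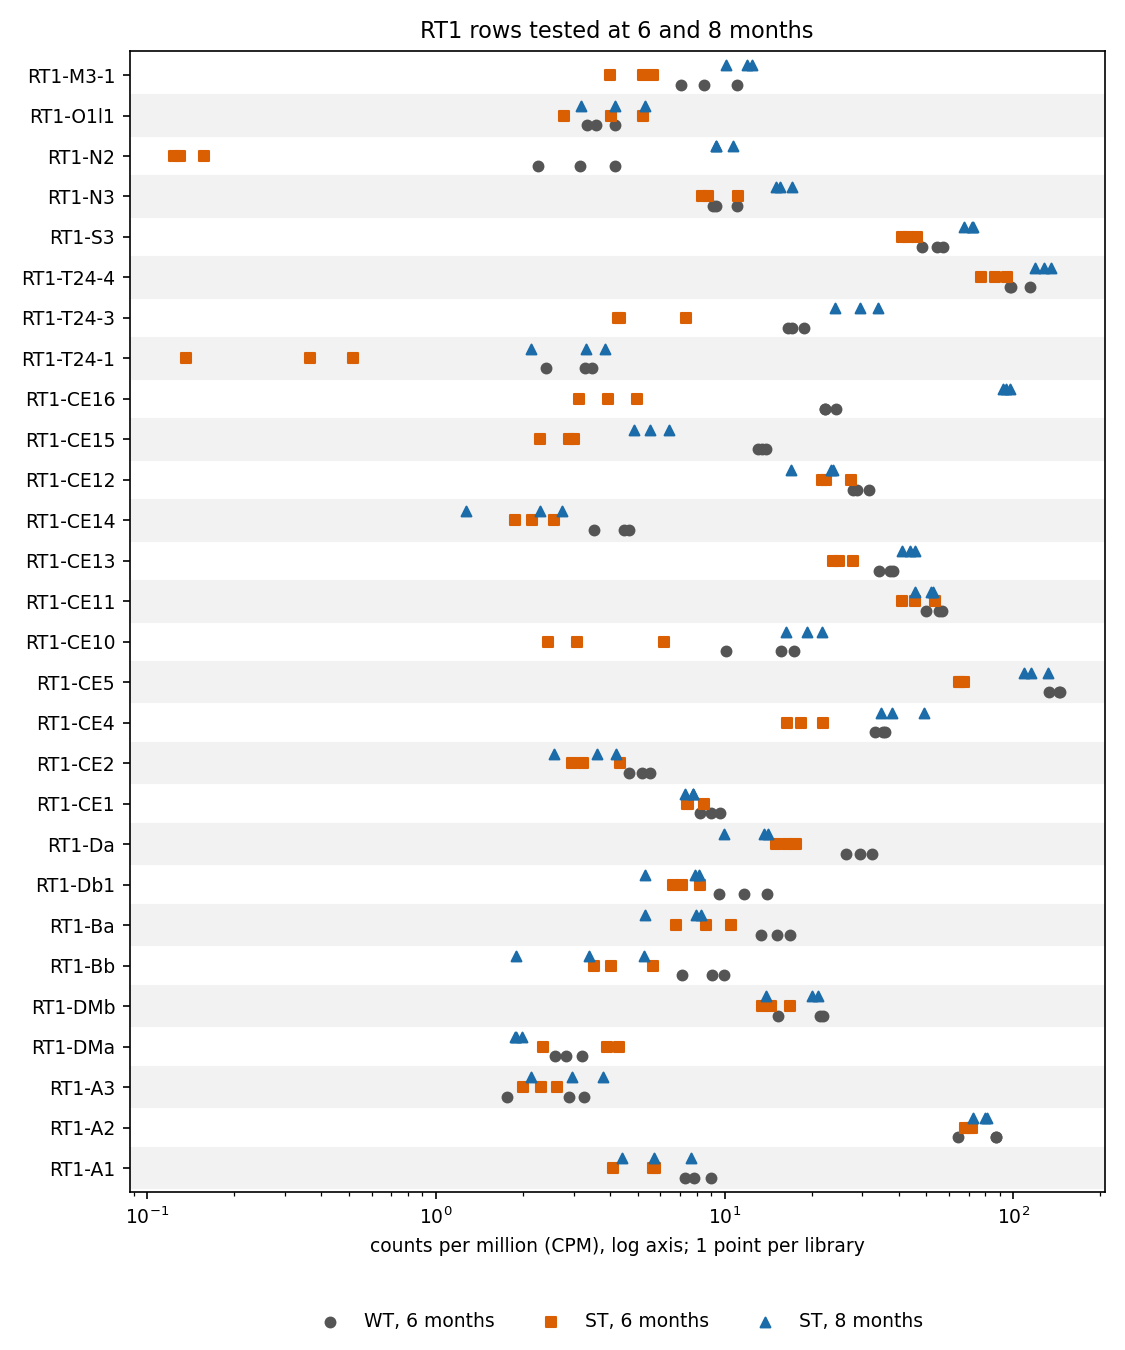
Level of each RT1 row tested at 6 and 8 months, in CPM on a log axis, with 1 point per heart (WT 6 months, ST 6 months, ST 8 months) and rows in chromosome order. In RT1-N2, RT1-T24-3, RT1-T24-1 and RT1-CE16 the 3 ST hearts at 6 months lie far to the left of the other groups. In RT1-CE10 they also lie left of all others, 1 of them (6.16 CPM) nearer to the lowest WT heart (10.1 CPM), while in RT1-A2, RT1-CE11 and RT1-CE1 the groups lie close together.

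The class II rows of both classical pairs fell at 6 months. RT1-Da read 26.3, 32.3 and 29.5 CPM in WT and 16.5, 17.7 and 15.0 CPM in ST hearts (log2 fold change -0.84, SE 0.114, adjusted p = 0.000137), and RT1-Db1 9.56, 11.7 and 14.01 CPM and 6.63, 7.12 and 8.24 CPM (log2 fold change -0.67, SE 0.172, adjusted p = 0.00855). RT1-Ba read 13.4, 15.2 and 16.8 CPM and 6.78, 10.6 and 8.63 CPM (log2 fold change -0.79, SE 0.164, adjusted p = 0.00269), and its beta chain RT1-Bb 7.10, 9.92 and 9.07 CPM and 3.54, 5.65 and 4.05 CPM (log2 fold change -0.96, SE 0.211, adjusted p = 0.00376). The groups did not overlap in any of these 4 rows, against 26.5% of all genes tested with every ST heart lower. RT1-DMb read 15.3, 21.9 and 21.4 CPM and 16.8, 14.5 and 13.5 CPM and did not pass (log2 fold change -0.39, SE 0.151, adjusted p = 0.0574), though it did without WT replicate 1 (adjusted p = 0.00744). RT1-DMa, the other DM chain, did not pass (log2 fold change 0.29, SE 0.269, adjusted p = 0.421).

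The 20 rows left out of the 6-month test had at most 1.16 CPM in any heart, reached by RT1-DOa in a WT heart. Among them RT1-O1, RT1-S2, RT1-M1-4, RT1-M1-5, RT1-M4, RT1-M5, RT1-M10-1, RT1-CE6 and RT1-CE7 had 0 counts in all 6 hearts.

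Of the 27 antigen presentation genes tested at 6 months, 6 fell and 5 rose, with a median log2 fold change of -0.061. These 40.7% are near the 40.0% of all genes called in this comparison. The class II activator Ciita fell from 2.73, 2.45 and 4.27 CPM to 1.23, 1.35 and 0.915 CPM (log2 fold change -1.41, SE 0.332, adjusted p = 0.00534), and Rfx5, a subunit of the RFX complex, also fell (-0.66 (SE 0.124, adjusted p = 0.00136)). The other falls were those of Cd74 (-0.24), Psmb9 (-0.49), Tap1 (-0.43) and Tapbpl (-0.40), a relative of the loading factor tapasin. The 3 chaperones of the endoplasmic reticulum that help class I to fold rose, namely Calr (0.36), Canx (0.38) and Pdia3 (0.29), as did both interferon gamma receptor chains, Ifngr1 (0.21) and Ifngr2 (0.75). B2m, the partner of every class I chain, read 878, 879.9 and 849 CPM in WT and 811, 830.1 and 889 CPM in ST hearts and did not pass (log2 fold change -0.04, SE 0.0623, adjusted p = 0.649). Nlrc5 did not pass either (log2 fold change -0.21, SE 0.125, adjusted p = 0.197).

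Beside the 6-month falls the cell markers gave these values, where 19.9% of all genes tested were called higher and 20.1% lower. The dendritic cell list summed to 31.6 to 37.4 CPM in WT and 41.6 to 54.4 CPM in ST hearts, and 2 of its 3 tested members rose (Clec9a, 1.03, and Zbtb46, 0.70). The third, Itgax, did not pass (log2 fold change -0.29, SE 0.144, adjusted p = 0.132), with every ST heart under every WT heart. The heart muscle list was lower in sum without overlap, at 72173 to 77656 CPM in WT and 61234 to 66980 CPM in ST hearts. Of its 5 members Myh6 fell (-0.46) while Actn2 (0.37) and Tnnt2 (0.27) rose. The macrophage list overlapped (126 to 162 against 141 to 191 CPM; 2 of 10 rose and none fell), as did the T and NK cell list (22.8 to 30.2 against 26.8 to 36.2 CPM, mostly Cd4; 0 of 4 passed) and the endothelial list (767 to 967 against 867 to 953 CPM; 1 of 5 fell). The B cell list summed to at most 0.784 CPM. Cd79a had 0 counts in WT replicates 2 and 3. Cd3e and Flt3, the defining markers of T and dendritic cells, were at most 1.20 and 1.08 CPM. Their part in the RT1 falls was not tested.

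The difference between the 6-month and the 2-month effect of ST was tested over names listed in both kinds of table. Of 19 RT1 rows 7 passed, all of class I, against 22.2% of 12658 genes tested (10.2% with a positive difference and 12.0% with a negative one). The 19 include RT1-M10-1, which had 0 counts in all hearts of 6 months. Its difference could not be estimated (SE 893), so it could not pass. The fall was deeper at 6 months in RT1-CE16 (difference in log2 fold change -1.17, SE 0.198, adjusted p = 0.000593), RT1-CE15 (-1.06, SE 0.264, adjusted p = 0.00916) and RT1-T24-1 (-1.62, SE 0.512, adjusted p = 0.0317). It was shallower in RT1-A1 (0.72, SE 0.210, adjusted p = 0.0223) and RT1-S3 (0.71, SE 0.153, adjusted p = 0.00359). The difference was also positive in RT1-O1l1 (2.24, SE 0.557, adjusted p = 0.00920), which fell at 2 months and did not pass at 6 months. It was positive in RT1-CE2 too (2.75, SE 0.704, adjusted p = 0.0110), a row left out of the 2-month test for low counts (2.01 and 1.14 CPM in WT, 0.0888 and 0.235 CPM in ST) that did not pass at 6 months. RT1-CE16, RT1-CE15 and RT1-S3 passed under each of 15 alternatives. The others did not pass without at least 1 of the hearts (4 rows passed without WT replicate 1 of 2 months, and 4 without ST replicate 1). None of the 6 class II rows passed. Because RT1-A2, RT1-N2 and other rows take reads only in the later tables, a change in how reads were assigned to rows and a change in the effect cannot be told apart for class I rows. Of 25 other antigen presentation genes 10 (40.0%) passed, all with a positive difference. Tap1 (1.18), Tap2 (1.05), Nlrc5 (1.08), Psmb8 (1.11), Psmb9 (1.07), Psmb10 (0.95) and B2m (0.50) had fallen at 2 months, and of these only Tap1 and Psmb9 also fell at 6 months. Calr (0.64), Canx (0.41) and Ifngr2 (0.96) did not pass at 2 months and rose at 6 months.

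In ST hearts class I RNA was higher at 8 than at 6 months, with very wide rises in a few rows, while class II was not. The summed class I level was 809, 743 and 746 CPM at 8 months, 1.75-fold above that of the 6-month ST hearts given above (log2 fold change 0.81, SE 0.0591). Of 22 class I rows tested 13 rose and none fell, with a median log2 fold change of 0.72. Over all 12931 genes tested the median was 0.02 and 39.5% passed, 18.8% as higher and 20.7% as lower. In 14 class I rows every 8-month heart lay above every 6-month heart, which held for 25.9% of all genes. This comparison shares the ST hearts of 6 months with the one above and sets time points with no WT group at the later one, so age and any difference in handling between time points cannot be told apart.

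RT1-CE16 read 97.4, 92.0 and 94.2 CPM at 8 months against 3.14, 4.96 and 3.96 CPM at 6 months, a 23.2-fold rise (log2 fold change 4.54, SE 0.120, adjusted p = 9.01e-11). Its share of the summed class I counts went from 0.72% to 1.19% per heart at 6 months to 12.0% to 12.6% at 8 months. RT1-N2 read 9.36, 9.34 and 10.7 CPM at 8 months (log2 fold change 5.99, SE 0.345, adjusted p = 4.89e-08), 153 counts against 3, a ratio of 73.0 with a counting interval of 24.5 to 358. RT1-T24-1 read 3.32, 2.14 and 3.85 CPM (log2 fold change 3.21, SE 0.470, adjusted p = 0.000164), 48 counts against 8, a ratio of 8.59 (4.03 to 21.0). RT1-T24-3 read 34.1, 24.1 and 29.5 CPM (log2 fold change 2.44, SE 0.195, adjusted p = 9.37e-07) and RT1-CE10 21.7, 19.3 and 16.3 CPM (log2 fold change 2.31, SE 0.244, adjusted p = 1.10e-05). All 8-month hearts lay above all 6-month ST hearts in these 5 rows, which come from 2 of the class I regions.

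The other 8 rows rose by 1.47-fold to 2.29-fold. RT1-M3-1 read 10.2, 12.4 and 12.0 CPM at 8 months (log2 fold change 1.19, SE 0.181, adjusted p = 0.000215), RT1-CE4 48.8, 38.1 and 34.9 CPM (log2 fold change 1.08, SE 0.139, adjusted p = 6.07e-05) and RT1-CE15 5.53, 6.42 and 4.87 CPM (log2 fold change 1.00, SE 0.234, adjusted p = 0.00475). RT1-CE5 read 132, 109 and 115 CPM (log2 fold change 0.84, SE 0.0786, adjusted p = 3.87e-06) and RT1-CE13 43.7, 45.5 and 41.3 CPM (log2 fold change 0.76, SE 0.0938, adjusted p = 4.04e-05). In the T24 stretch RT1-N3 read 15.0, 15.6 and 17.1 CPM (log2 fold change 0.75, SE 0.147, adjusted p = 0.00150), RT1-S3 67.5, 71.8 and 72.2 CPM (log2 fold change 0.69, SE 0.0766, adjusted p = 1.68e-05) and RT1-T24-4 135, 127 and 119 CPM (log2 fold change 0.56, SE 0.0826, adjusted p = 0.000181). In none of these did the 8-month hearts overlap the 6-month ST hearts.

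The other class I rows did not pass. RT1-A2 read 79.7, 80.7 and 72.3 CPM at 8 months (log2 fold change 0.14, SE 0.0729, adjusted p = 0.150), RT1-CE11 52.7, 45.8 and 51.9 CPM (log2 fold change 0.09, SE 0.102, adjusted p = 0.514), RT1-CE12 23.8, 17.0 and 23.4 CPM (log2 fold change -0.17, SE 0.141, adjusted p = 0.366) and RT1-CE1 7.76, 7.75 and 7.31 CPM (log2 fold change -0.05, SE 0.163, adjusted p = 0.846). RT1-A1 read 7.66, 5.72 and 4.43 CPM (log2 fold change 0.14, SE 0.238, adjusted p = 0.664). By region, the ratio of 8-month to 6-month ST hearts was 1.12 for the A rows, 1.98 for the CE rows, 1.75 for the O, N, S and T24 rows and 2.35 for the M rows.

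**Figure D4:**
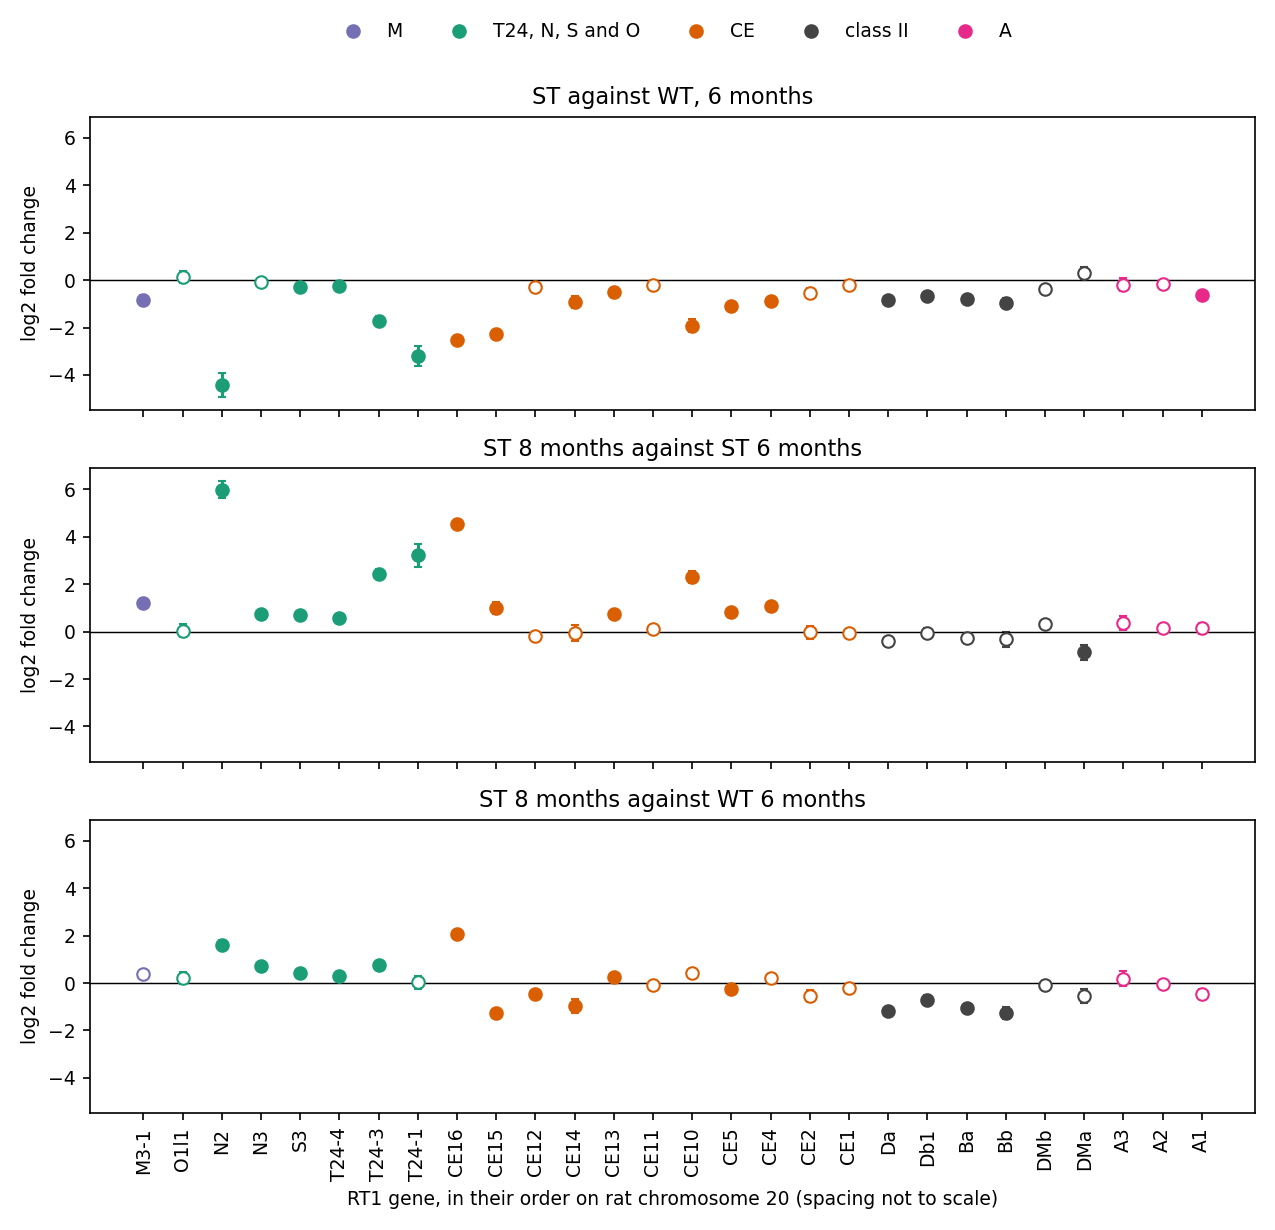
Log2 fold change of each RT1 row tested in the 3 comparisons of 6 and 8 months, in the genes' order on chromosome 20 (not to scale); error bars are 1 SE, filled points passed the adjusted p threshold of 0.05 and colours give the region. Deep falls and rises (RT1-N2, RT1-T24-3, RT1-T24-1, RT1-CE16, RT1-CE10) stand beside neighbours near 0 (RT1-O1l1, RT1-CE11), and the 3 panels share libraries.

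No class II row rose in ST hearts between 6 and 8 months. The class II sum was 39.5, 56.8 and 59.5 CPM (log2 fold change -0.10, SE 0.124 against ST hearts of 6 months), with replicate 1 the lowest. Without that heart the log2 fold change turned to 0.048. Only RT1-DMa passed among 6 rows, as lower, at 1.90, 1.88 and 2.00 CPM against 4.32, 3.93 and 2.35 CPM (log2 fold change -0.86, SE 0.313, adjusted p = 0.0431). It did so with few counts, and the call was lost when any 1 heart other than ST replicate 3 of 6 months was left out, when scaling by library size alone and in DESeq2 (adjusted p from 0.0591 to 0.161). RT1-Da read 9.94, 13.7 and 14.2 CPM (log2 fold change -0.38, SE 0.147, adjusted p = 0.0579), under all 6-month ST hearts, and passed with a term for the replicate number (adjusted p = 0.0461). RT1-Ba read 5.29, 8.27 and 7.99 CPM (log2 fold change -0.28, SE 0.215, adjusted p = 0.329), RT1-Db1 5.29, 7.90 and 8.17 CPM (log2 fold change -0.04, SE 0.197, adjusted p = 0.886) and RT1-DMb 13.96, 20.1 and 21.1 CPM (log2 fold change 0.31, SE 0.155, adjusted p = 0.132). RT1-DMb passed as higher without 8-month replicate 1 (adjusted p = 0.0251).

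Among the antigen presentation genes 6 of 26 tested rose and 9 fell between 6 and 8 months in ST hearts, 57.7% against the 39.5% of all genes. Psmb9 (0.62), Psmb8 (0.36), the proteasome activator subunit Psme1 (0.28), Tapbp (0.32), which codes for tapasin, Rfx5 (0.48) and Cd74 (0.25) rose. Calr (-0.40), Canx (-0.32), Pdia3 (-0.24), Ifngr1 (-0.32), Ifngr2 (-0.51) and Irf1 (-0.42) fell. So did Ctss (-1.01) and Lgmn (-0.41), proteases of the class II route, and Irf8 (-0.78), a regulator of myeloid cells. B2m did not pass (log2 fold change 0.14, SE 0.0537, adjusted p = 0.0588), nor did Nlrc5 (log2 fold change -0.23, SE 0.172, adjusted p = 0.311).

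The macrophage list was lower in sum at 8 months. It came to 88.9 to 102 CPM against 141 to 191 CPM in 6-month ST hearts, and 5 of 10 members fell, among them Mrc1 (-1.49) and C1qa (-0.90). Beside the counts given here, 20.7% of all genes tested were called lower and 18.8% higher. The dendritic cell list summed to 35.2 to 39.1 CPM, and 2 of 3 tested members fell (Clec9a, -1.24, and Itgax, -0.70). The heart muscle list summed to 71017 to 74561 CPM, above all 6-month ST hearts, with 3 members higher and 2 lower. The endothelial list, at 1057 to 1111 CPM, lay above the 6-month ST hearts, with 2 of 5 members higher (Kdr, 0.63, and Tie1, 0.44). The T and NK cell list summed to 23.6 to 27.6 CPM (0 of 2 passed), the B cell list to at most 0.423 CPM, and Cd3e and Cd79a were at 0 in 1 and 2 of the 3 hearts. Their part in the RT1 differences was not tested.

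Set against WT hearts of 6 months, ST hearts of 8 months had slightly more class I RNA in sum, a different mix of class I rows, and less class II RNA. Age and treatment cannot be told apart here, and both groups also enter the comparisons above. The class I sum was 1.17-fold higher (log2 fold change 0.23, SE 0.0608) and the class II sum 1.69-fold lower (log2 fold change -0.76, SE 0.125). Of 22 class I rows tested 7 were higher and 4 lower, with a median log2 fold change of 0.19, and of 6 class II rows 4 were lower, with a median of -0.87. Of all 13095 genes tested 33.9% passed, 17.8% as higher and 16.1% as lower.

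RT1-CE16, at 97.4, 92.0 and 94.2 CPM in ST hearts of 8 months, was 4.14-fold above WT hearts of 6 months (log2 fold change 2.05, SE 0.0812, adjusted p = 3.26e-11), and RT1-N2 was 3.05-fold above them (log2 fold change 1.61, SE 0.217, adjusted p = 3.22e-05). RT1-T24-3 (0.74 (SE 0.127, adjusted p = 0.000294)), RT1-N3 (0.71 (SE 0.135, adjusted p = 0.000743)), RT1-S3 (0.42 (SE 0.0837, adjusted p = 0.00113)) and RT1-T24-4 (0.31 (SE 0.0767, adjusted p = 0.00479)) were also higher. RT1-CE13 was too (0.26 (SE 0.0884, adjusted p = 0.0331)), but its call was lost without WT replicate 3, without 8-month replicate 1 or 2, without the filter on low counts, when scaling by library size alone and in DESeq2 (adjusted p from 0.0554 to 0.122).

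RT1-CE15 was 2.39-fold lower (log2 fold change -1.26, SE 0.159, adjusted p = 1.81e-05), so that the neighbours RT1-CE16 and RT1-CE15 ended on opposite sides of the WT hearts. The other 3 falls depended on single hearts. RT1-CE14, at 2.73, 1.28 and 2.30 CPM in ST hearts of 8 months (log2 fold change -0.97, SE 0.293, adjusted p = 0.0172), was lost without WT replicate 3 (adjusted p = 0.0521), 8-month replicate 2 (0.100) and in DESeq2 (0.0722). RT1-CE5 (-0.23 (SE 0.0763, adjusted p = 0.0258)) was lost without WT replicate 3 (0.0790), 8-month replicate 2 (0.146) or 3 (0.106) and in DESeq2 (0.0538). RT1-CE12 (-0.45 (SE 0.125, adjusted p = 0.0103)) was lost without 8-month replicate 2 (0.0686). RT1-A2 (-0.03 (SE 0.104, adjusted p = 0.859)), RT1-T24-1 (0.02 (SE 0.287, adjusted p = 0.956)), RT1-CE11 (-0.09 (SE 0.0857, adjusted p = 0.439)), RT1-CE10 (0.41 (SE 0.172, adjusted p = 0.0777)), RT1-CE4 (0.22 (SE 0.111, adjusted p = 0.135)) and RT1-M3-1 (0.39 (SE 0.175, adjusted p = 0.0948)) did not pass, and neither did RT1-A1, RT1-A3, RT1-CE1, RT1-CE2 or RT1-O1l1.

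In class II, RT1-Da (-1.20 (SE 0.137, adjusted p = 6.54e-06)), RT1-Ba (-1.05 (SE 0.170, adjusted p = 0.000189)), RT1-Bb (-1.26 (SE 0.263, adjusted p = 0.00152)) and RT1-Db1 (-0.70 (SE 0.193, adjusted p = 0.0104)) were lower than in WT hearts of 6 months, with no overlap, which held for 24.3% of all genes tested. RT1-Bb, not given above for 8 months, read 1.90, 3.38 and 5.26 CPM there, a wide spread. Only the call of RT1-Db1 was lost, without 8-month replicate 1 (adjusted p = 0.0575). RT1-DMb (-0.07 (SE 0.162, adjusted p = 0.784)) and RT1-DMa (-0.56 (SE 0.289, adjusted p = 0.149)) did not pass. Of 27 antigen presentation genes 5 were lower and none higher (18.5%, against 33.9% of all genes): Ciita (-1.13), Ctss (-0.69), Irf8 (-0.56), Irf1 (-0.34) and Lgmn (-0.27). Beside them 6 of 10 macrophage markers were lower, and the endothelial list was higher (767 to 967 CPM in WT), with 2 of 5 members higher. The dendritic cell list had 1 of 3 members higher (Zbtb46, 0.56) and 1 lower (Itgax, -0.97), and the heart muscle list, whose sums overlapped, 3 of 5 higher and 2 lower. Their part was not tested.

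**Figure D5:**
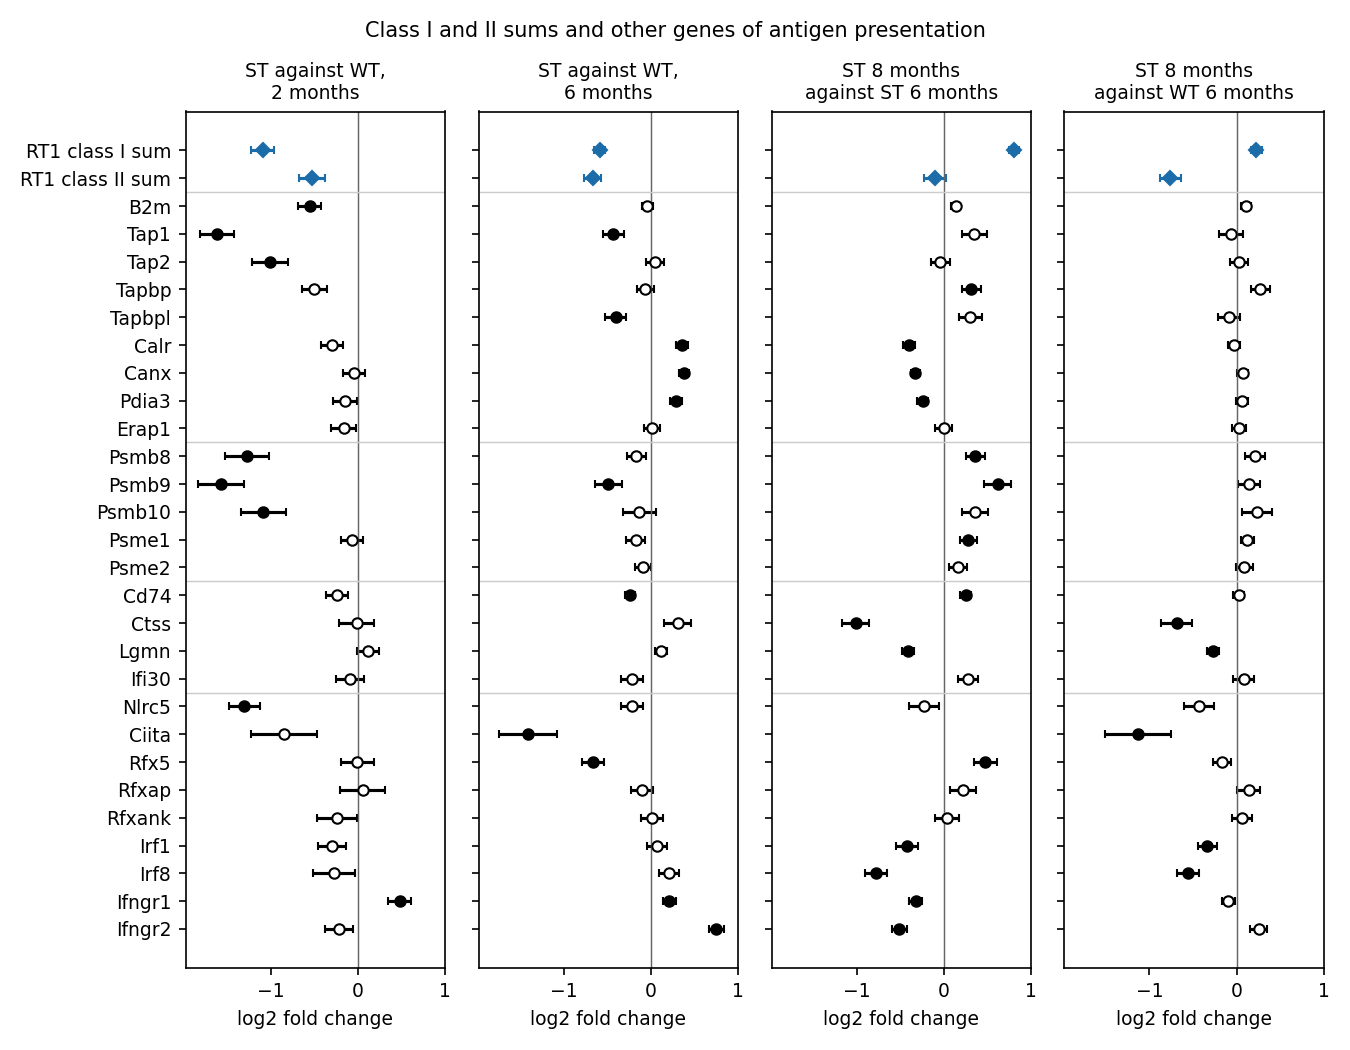
Log2 fold change of the RT1 class sums (diamonds, no test) and of 27 other antigen presentation genes (circles) in the 4 comparisons. Error bars are 1 SE. Only genes tested in a comparison are drawn, which were 25 at 2 months and 26 for ST hearts of 8 against 6 months. Filled circles passed the adjusted p threshold of 0.05. Grey lines part the lists (class I partners and loading, immunoproteasome, class II partners, regulators). At 2 months Tap1, Tap2, Psmb8, Psmb9, Psmb10 and Nlrc5 lie at -1.01 or less. At 6 months B2m, Tap2 and Nlrc5 lie between -0.21 and 0.05, none passing. Tap1 (-0.43), Psmb9 (-0.49) and Ciita (-1.41) passed there as lower.

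The mix of class I rows was compared as the share of summed class I counts that would have to move between rows to turn the profile of 1 heart into that of another. Between hearts of a group this was 3.70 to 7.27 percentage points in WT at 6 months, 4.12 to 7.06 in ST at 6 months and 4.39 to 5.41 in ST at 8 months. Between groups it was 13.8 to 16.7 points for WT against ST at 6 months, 18.5 to 21.1 for ST at 6 against 8 months and 13.7 to 16.4 for WT at 6 against ST at 8 months. At 2 months the pairs within groups differed by 4.597 points (WT) and 5.62 points (ST), and pairs between groups by 9.42 to 12.5. At each time point every pair from different groups differed by more than every pair within a group, and no test was made of this. Haplotypes of the rats were not measured, and a difference in haplotype between groups cannot be told apart from a difference in expression of single rows.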

How the data were processed

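The authors deposited expected counts per gene, 1 table per time point, for 13 libraries of bulk RNA from whole rat heart. They are mostly whole numbers, not scaled between samples. For the aligner, the counter and the annotation, none is given in the sources used here. The submitters' processing notes name GRCm38 and mm10, both builds of the mouse, although the gene names are those of the rat. All 13 sample columns were used and 0 were left unused.

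After rounding of the expected counts to integers, each comparison was fitted on its own libraries over all names listed in its tables. Genes were kept by filterByExpr and scaled by TMM, and edgeR 4.0.16 (R 4.3.3) gave two-sided p-values from its quasi-likelihood F test. Benjamini-Hochberg adjusted p-values cover all genes tested, with a threshold of 0.05. Each p-value sets the difference between groups against the spread between hearts of a group. The SE is the absolute log2 fold change over the square root of F. Class sums replaced their rows in the same fit and carry no test. For CPM values, TMM factors were computed separately for the 2-month libraries and for those of 6 and 8 months. Counting intervals are exact at 95%, and they and the floor of 3 counts describe counting error alone.

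Class II rows are those whose letters after RT1- start with B, D or H. Values in every library are given for rows that passed or had a mean of at least 5 CPM in a comparison. Members, gene lists and rules were chosen with earlier results of these data known, and 1 listed gene is not reported here. Sequences and gene order come from RefSeq tables of GRCr8, which may not be the build behind the counts. The kappa B consensus took the place of a longer exact form after the matches of that form had been seen. Windows were aligned globally with biopython 1.88. Alternatives were DESeq2 size factors, library size alone, no filter, DESeq2 1.42.0, a replicate block, a fit over all 13 libraries, sums without their row of most counts, and each library left out. The procedure was tested on simulated data.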

Additional observations from a re-analysis of the deposited data

Results flagged for a closer look

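The effect of ST differed between 6 and 2 months, by a test of the difference itself with edgeR's quasi-likelihood test, in 7 of 19 RT1 rows, against 22.2% of all genes tested. RT1-M10-1, 1 of the 19, had 0 counts in all hearts of 6 months and could not pass. The difference of log2 fold changes (6 minus 2 months) was negative in RT1-CE16 (-1.17, adjusted p = 0.000593), RT1-CE15 (-1.06, adjusted p = 0.00916) and RT1-T24-1 (-1.62, adjusted p = 0.0317), and positive in RT1-A1 (0.72, adjusted p = 0.0223), RT1-S3 (0.71, adjusted p = 0.00359), RT1-O1l1 (2.24, adjusted p = 0.00920) and RT1-CE2 (2.75, adjusted p = 0.0110). RT1-A1 did not pass without WT replicate 1 of 2 months or without WT replicate 3, ST replicate 2 or ST replicate 3 of 6 months (adjusted p from 0.0528 to 0.0843). RT1-CE2 did not pass without WT or ST replicate 1 of 2 months (0.107 and 0.0969), nor RT1-O1l1 without ST replicate 1 of 2 months (0.0741). RT1-T24-1 did not pass in DESeq2 or without any 1 of WT replicate 1 or ST replicate 1 of 2 months and WT or ST replicates 1 and 3 of 6 months (0.0577 to 0.126). The tables list different class I rows at the different time points, and the cause was not tested.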

How the results depend on the processing

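Depth limits the rows near 0 counts, and with 2 hearts a group at 2 months single hearts weigh most. RT1 rows called at 2 months numbered 7, and 4 to 11 when each heart was left out in turn (4 without WT replicate 1, 11 without ST replicate 2). They were 11 in the fit over all 13 libraries, which gave 8 in place of 14 for ST hearts of 8 against 6 months, since rows not listed at 2 months drop out of it. That fit gave 12 calls at 6 months and 10 for 8 months against WT. In DESeq2 the calls were 5 at 2 months, 14 at 6 months, 13 for 8 against 6 months and 12 for 8 months against WT. Library size alone gave 23 at 6 months. Without the filter there were 10 at 2 months and 20 at 6 months. Leaving out each heart gave 16 to 18 calls at 6 months, 13 to 14 for 8 against 6 months, 11 to 15 for 8 months against WT, and 4 to 7 for the difference of effects. Class I sums then ranged from -1.17 to -1.03 at 2 months, -0.62 to -0.55 at 6 months, 0.76 to 0.83 for 8 against 6 months and 0.19 to 0.25 against WT. Class II sums ranged from -0.69 to -0.37, -0.77 to -0.61, -0.21 to 0.048 (turned without 8-month replicate 1) and -0.87 to -0.60. Scaling by library size alone moved the median of all genes by -0.12 at 6 months and the class I sum to -0.70, and the latter to 0.16 for 8 months against WT. Without RT1-CE5 or whichever row had the most counts, these sums were -0.48 and 0.33. Of 1038 values of single rows under alternatives, 940 kept direction and side, 59 no longer passed, 24 newly passed and 15 turned, none of them a call. Those that turned, with their ranges when each heart was left out, were RT1-DMb at 2 months (-0.29 to 0.051), RT1-N3 at 6 months (-0.20 to 0.034), and for 8 against 6 months RT1-A1 (-0.076 to 0.33), RT1-CE1 (-0.084 to 0.029; 0.019 by library size alone) and RT1-Db1 (-0.15 to 0.12; 0.023 by library size alone). For 8 months against WT they were RT1-A2 (-0.17 to 0.042) and RT1-DMb (-0.22 to 0.088). The causes were not tested. Deviations of hearts from their group means correlated at 0.004 to 0.178 for the same replicate number. For different numbers the correlations ran from -0.112 to 0.067. Whether the numbers pair hearts cannot be told from these values. With a replicate block the calls were 7, 18, 15 and 15 in the 4 comparisons and 7 for the difference of effects, and the class I sums -1.09, -0.59, 0.80 and 0.23.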
